A study of Homo sapiens with 36 samples.

Results

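The 39 mRNAs described here encode proteins of the large (60S) subunit of the cytosolic ribosome, from RPL3 to RPL41 and the stalk proteins RPLP0, RPLP1 and RPLP2. One main transcript per gene was chosen by its Ensembl transcript ID, without use of measured values, and all 39 IDs were found among the 223367 transcripts of the deposited table. The cells were HUES6, a line derived from a human embryo and kept as pluripotent stem cells, either unmodified (WT) or labelled RBPMS KO (KO), without the RNA-binding protein RBPMS. Both genotypes were kept in FTDA, a defined medium for pluripotent cells, and all cultures received cycloheximide at 100 ng/ml for 5 min, which holds ribosomes on mRNA. Lysates were separated by polysome profiling, which sorts mRNAs by the number of bound ribosomes, into 40S, 80S, disome, Polysome1 and Polysome2 fractions, beside an unfractionated Input. With 3 replicates of each this gave 36 libraries in 12 groups. The labels do not say whether replicates within a genotype were separate clones or separate harvests, and p-values therefore measure only the spread between these samples. RBPMS and the markers of pluripotency were not analysed here, because the table pairs no ID with a gene, and both the genotype and the cell type were taken from the labels.

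Large subunit proteins are needed in matched numbers by a growing cell, and most of their mRNAs begin with a 5′ terminal oligopyrimidine (TOP) tract, a C at the first transcribed base followed by a run of C and T. Through this tract the mTOR pathway and the protein LARP1 move TOP mRNAs as a group between ribosome-free and ribosome-bound pools. In pluripotent cells ribosomal protein mRNAs are among the most abundant mRNAs. The question put to the gradient was where each member lay between the ribosome-poor 40S fraction and the heavy Polysome2 fraction, and whether this differed in KO cells.

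Because the TOP tract defines this class of mRNA, the first transcribed bases were read from RefSeq promoter windows of GRCh38.p14, in which 32 of the 39 genes had an entry. A C at the start followed by at least 4 further C or T, on the gene's own strand, was present in 23 of these 32 genes (71.9%) and in 5.14% of the 27305 genes of the table. The 9 members without such a start in any listed window were RPL3, RPL4, RPL6, RPL9, RPL10A, RPL15, RPL19, RPL27 and RPL32, and the remaining 7 members had no window here. The rule read from the annotated start base only, so a tract beginning a few bases away was not counted. In RPL19 an annotated start lay inside a longer run of C and T. These 9 members lack a counted start, and whether they lack a TOP tract was not tested. The windows below show 10 bases before and 20 bases from the annotated start, with the C and T run from the start in capitals. They are given for the members on which the results turn, with RPL3 as a member whose run of 4 falls short of the minimum of 5.
RPL41 (chr12:56116623-56116652, plus strand): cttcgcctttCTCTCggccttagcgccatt
RPL39 (chrX:119791611-119791640, minus strand): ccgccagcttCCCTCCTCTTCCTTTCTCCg
RPLP1 (chr15:69452808-69452837, plus strand): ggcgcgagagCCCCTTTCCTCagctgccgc
RPLP0 (chr12:120201092-120201121, minus strand): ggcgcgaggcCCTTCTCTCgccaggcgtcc
RPL11 (chr1:23691796-23691825, plus strand): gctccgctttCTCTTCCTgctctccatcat
RPL24 (chr3:101686699-101686728, minus strand): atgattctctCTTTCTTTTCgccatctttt
RPL3 (chr22:39319604-39319633, minus strand): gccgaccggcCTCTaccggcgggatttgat
Counted from the annotated start, the length of the tract ran from 5 bases in RPL41 to 19 in RPL39, the members with the highest levels. Across the 23 genes with a tract, its length had a Pearson r of -0.09 with the WT difference between Polysome2 and 80S, given as a description because the genes share the same libraries.

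Values are transcript abundances in TPM, a unit that corrects for transcript length and sums to 1000000 in each library. Equal amounts of RNA went into each library, so a value is a share of that library's mRNA and not an amount, and TPM keeps no record of sequencing depth. Transcripts that reached 1 TPM numbered from 8956 to 38389 in WT libraries and 9867 to 31380 in KO libraries. Some libraries stood apart for the members. Over Input and the fractions, the median member difference from the WT mean was -3.46 to -0.81 log2 in KO replicates 1 and 2. In KO replicate 3 it was -0.34 to 0.07. KO 40S replicate 2 lay below all WT 40S libraries for 15 of 39 members, beside 8.96% of all tested transcripts. WT 40S replicate 3 lacked several members that the other WT 40S libraries held, and KO disome replicate 1 held only 0.538% of its TPM in the 39 members and 70.5% in its 10 most abundant transcripts. The External RNA Controls Consortium (ERCC) spike-ins summed to 2.55 to 876 TPM in WT libraries and 43.3 to 3589 TPM in KO libraries, and scaling to them turned several directions reported below.

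All 39 members passed the filter of at least 1 TPM in at least 3 libraries. In WT Input 25 members had means between 717 and 8182 TPM and 14 lay between 2.97 and 249 TPM. RPL41 (ENST00000501597.3), a subunit bridge protein that is the smallest protein of the ribosome, was highest at 8182 TPM ± 1761 (SD, n = 3). RPL39 (ENST00000361575.3), a small protein in the wall of the exit tunnel, followed at 4593 TPM ± 1079 (SD, n = 3), then RPL12, a protein of the stalk base, at 3785 TPM ± 794 (SD, n = 3). RPL12 and RPL39 overlapped, while the lowest RPL41 library (6178 TPM) lay above the highest RPL39 library (5381 TPM). The 12 members below 100 TPM were RPL4, RPL9, RPL13, RPL15, RPL23A, RPL27A, RPL28, RPL31, RPL32, RPL37, RPL37A and RPL38, and RPL13 was lowest at 2.97 TPM ± 0.160 (SD, n = 3). Other transcripts of these genes were not analysed here, so a low value is that of the listed transcript and not of the gene. RPL7A shared its values in all 36 libraries with 1 other transcript ID, so its estimate may be split.

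**Figure D1:**
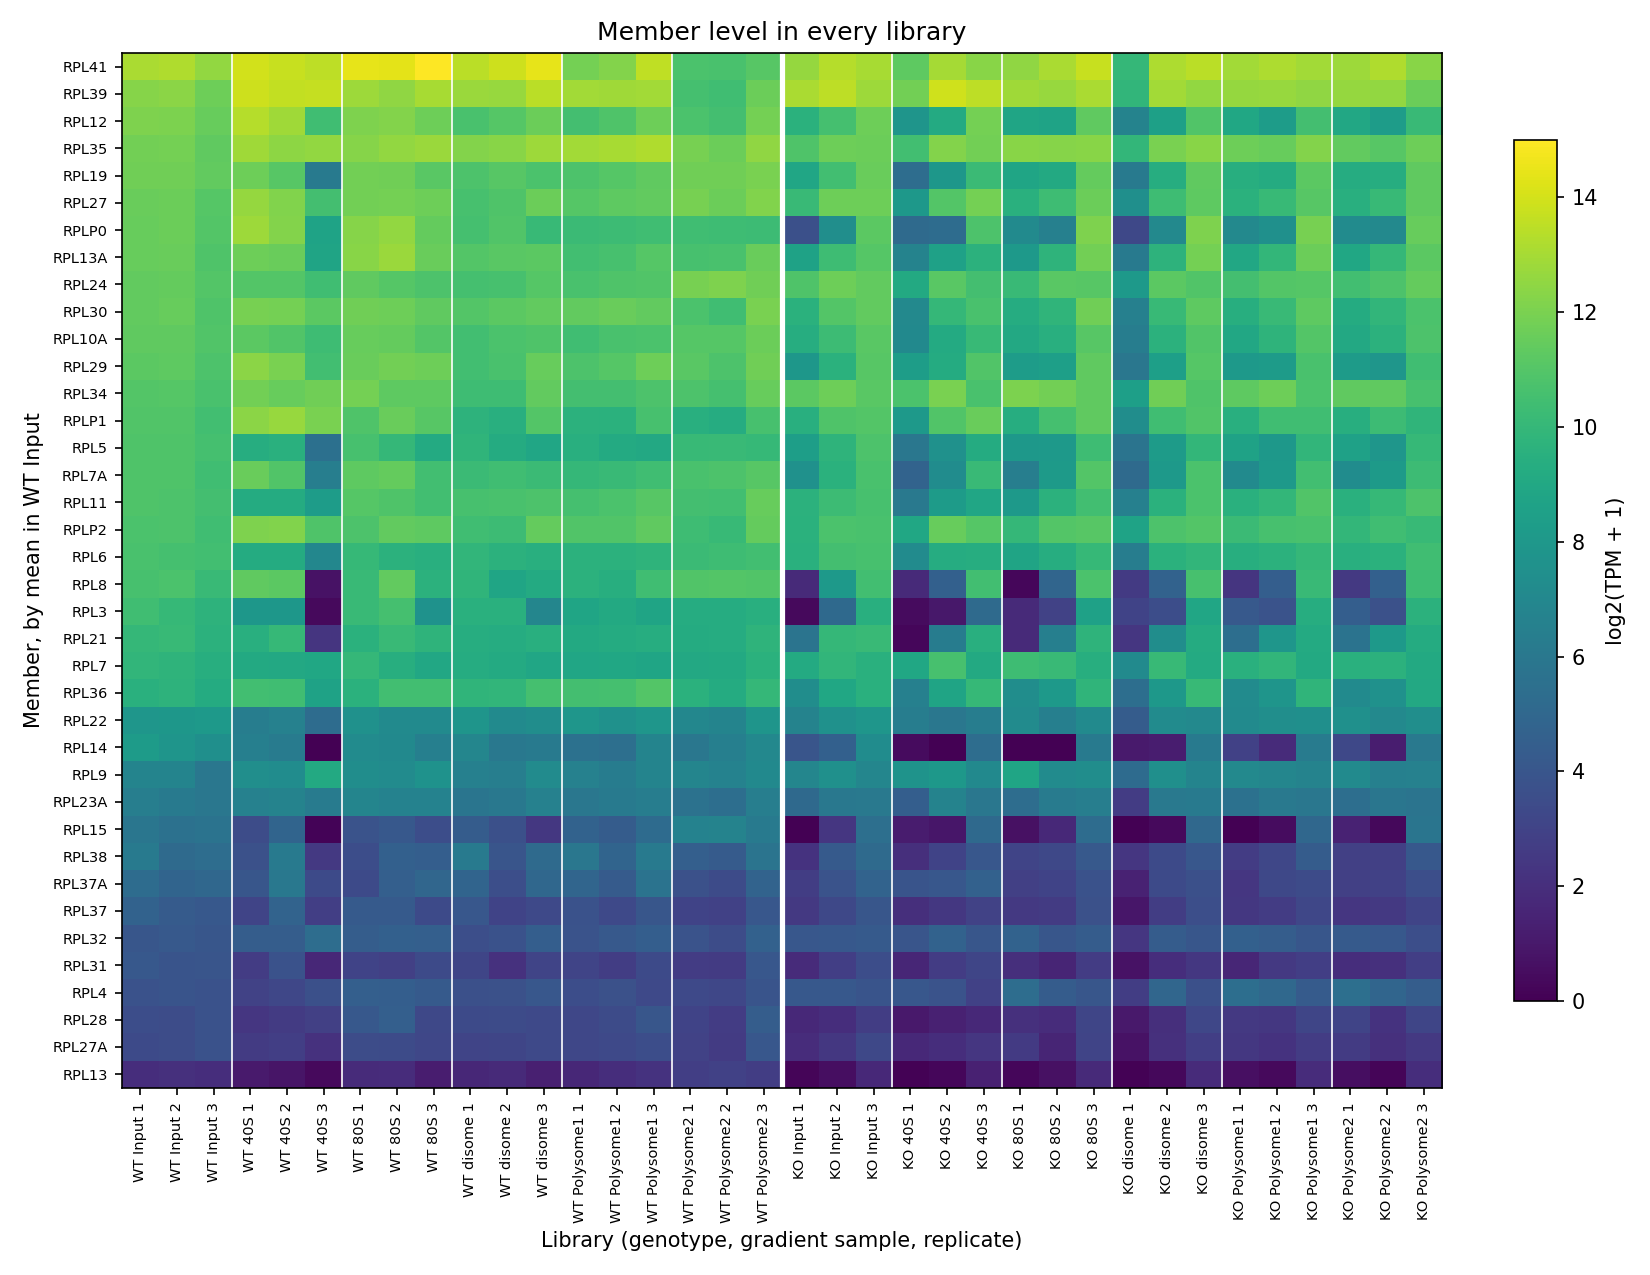
Level of the large subunit protein mRNAs, except 1 that is not reported here, as log2(TPM + 1) in colour, in every library, with members ordered by their WT Input mean and columns by genotype, gradient sample and replicate. RPL41 and RPL39 form the bright top rows, and RPL3, RPL8 and RPL14 are darker in KO replicates 1 and 2 and in WT 40S replicate 3 than in KO replicate 3.

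Summed over the 39 members, the share of library TPM in WT was 6.20% ± 1.15 in Input against 9.14% ± 3.35 in 40S and 9.63% ± 0.385 in 80S (SD, n = 3 each). It was 6.38% ± 1.53 in the disome fraction, 5.86% ± 1.20 in Polysome1 and 5.27% ± 1.39 in Polysome2. The WT 80S libraries, at 9.38% to 10.1%, lay above all WT libraries of Input, disome, Polysome1 and Polysome2. In KO Input the share was 5.02% ± 1.74, and in the KO fractions it was 3.94% ± 2.29 for 40S, 4.97% ± 2.41 for 80S, 3.71% ± 3.04 for disome, 4.15% ± 1.35 for Polysome1 and 3.66% ± 0.854 for Polysome2 (SD, n = 3 each). The KO 80S libraries held 3.25%, 3.94% and 7.73%, all below the WT 80S libraries, and in Input the genotypes overlapped. RPL39 and RPL41 made up 3.30% of library TPM in WT 80S and 0.387% in WT Polysome2, while the other 37 members made up 6.33% and 4.88%. The difference in summed share between WT 80S and WT Polysome2 was thus divided between these members and the remainder.

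**Figure D2:**
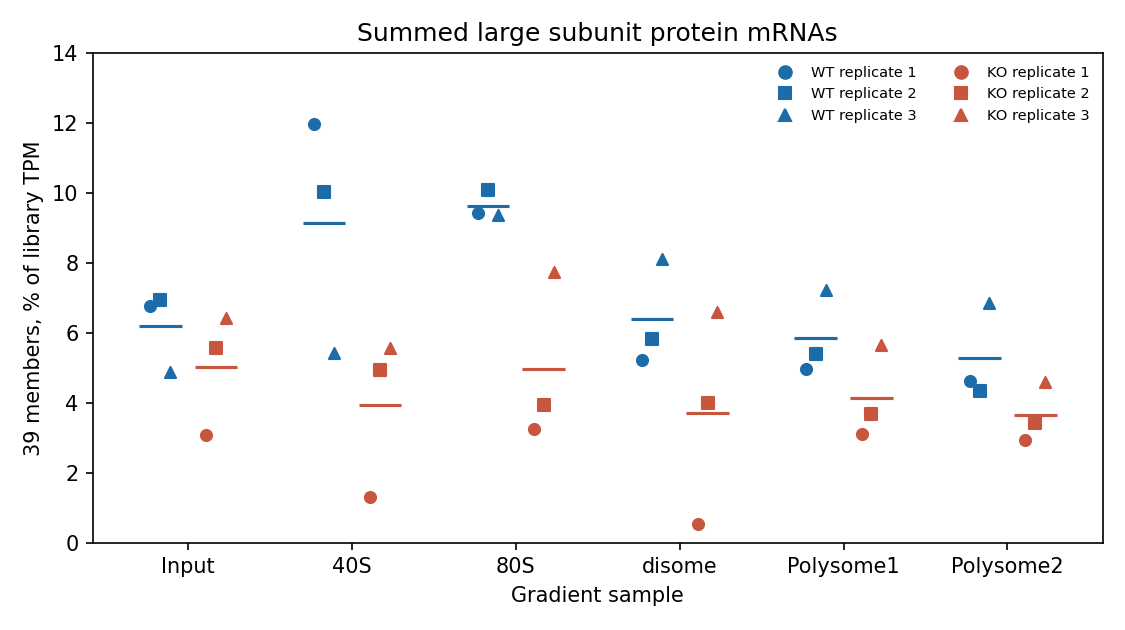
Summed TPM of the 39 members as a percentage of library TPM (vertical axis) in each gradient sample, with 1 point per library and a bar at the mean of 3 replicates. WT 80S libraries lie close together near 9.63%, and KO replicate 3 is the highest KO library in each gradient sample.

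RPL41 had the lowest value of the 39 members for WT Polysome2 against 80S. Its level was 8888, 9481 and 6178 TPM in WT Input, 22694, 21776 and 32821 TPM in WT 80S, and 1712, 1685 and 2198 TPM in WT Polysome2, for replicates 1, 2 and 3. All 3 Polysome2 libraries lay below all Input and 80S libraries. Between these ends the WT means were 13977 TPM in 40S, 16175 TPM in disome and 6906 TPM in Polysome1. From 80S to Polysome2 the log2 level of RPL41 fell by 3.77 with an SE of 0.575 (limma adjusted p = 0.0002834), and between libraries of the same replicate number the differences were -3.73, -3.69 and -3.90. With ERCC scaling, which moved the median of all transcripts to 2.15, the RPL41 difference was -1.53 and was not called. Against Input RPL41 fell by 2.12 in Polysome2 (SE 0.575, limma adjusted p = 0.0131), a direction that turned with ERCC scaling, at 1.80 beside a median of all transcripts of 2.57. This call also did not hold without WT replicate 1 (-1.99) or without WT replicate 2 (-1.93), where the adjusted p was 0.1503 and 0.2011 in a range from 0.0003155 to 0.2011 over its alternatives.

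A measure that no single scaling factor per library can move is the share of RPL41 among the 39 members. It was 24.1%, 21.6% and 35.0% in WT 80S and 3.71%, 3.90% and 3.21% in WT Polysome2. In KO it was 17.6%, 22.6% and 17.5% in 80S and 24.2%, 27.6% and 11.2% in Polysome2. The WT values of these fractions were far apart, and the KO values overlapped, with KO replicate 3 the only KO replicate in which the share was lower in Polysome2 than in 80S. The share of RPL41 also depends on the other members. The 37 members other than RPL39 and RPL41 made up 1.60%, 1.87% and 3.77% of library TPM in KO Polysome2. In WT Polysome2 they made up 4.30%, 4.02% and 6.33%.

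**Figure D3:**
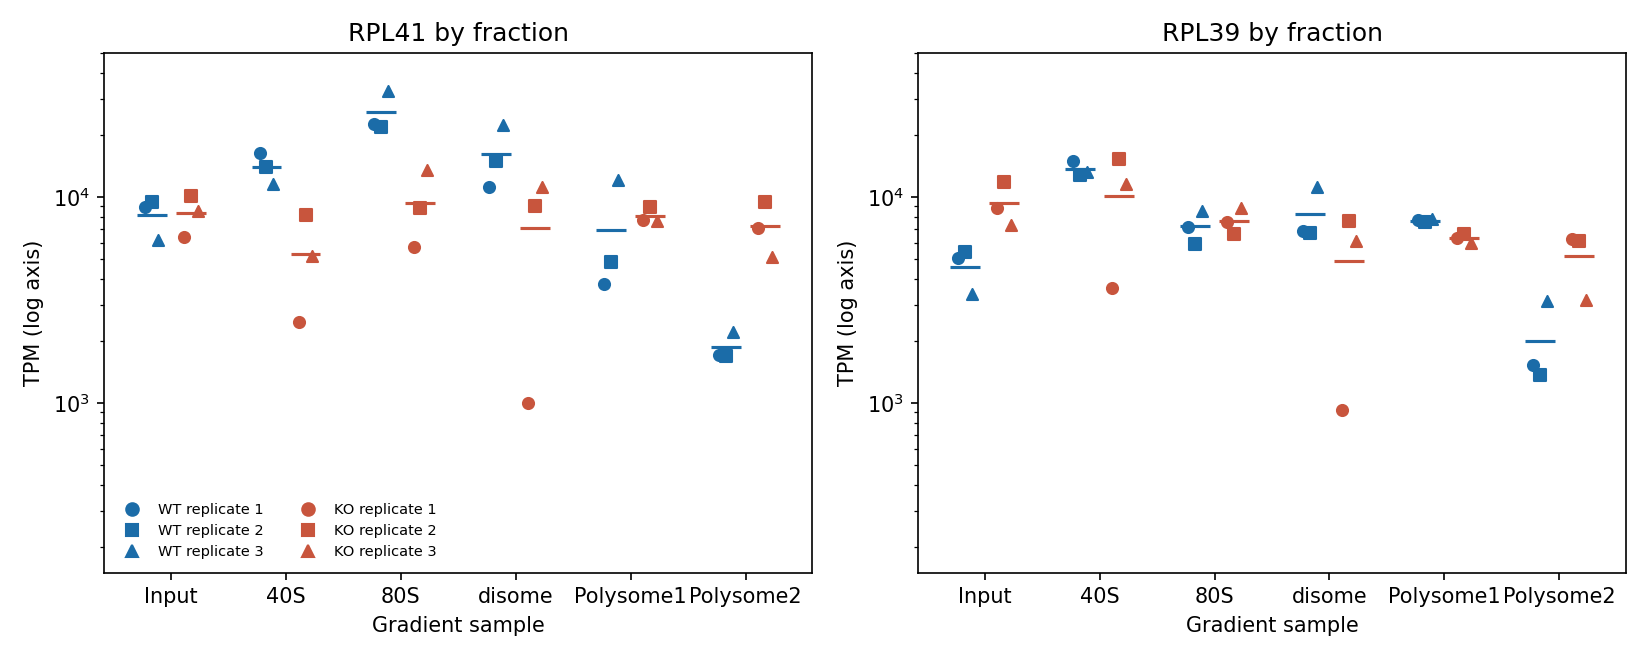
RPL41 and RPL39 in TPM (vertical log axis) in each gradient sample, with 1 point per library, shapes for replicates and a bar at the mean of 3. In WT Polysome2 both mRNAs lie below their WT 80S libraries, which for RPL39 turns with ERCC scaling, and KO Polysome2 libraries lie above WT Polysome2 for both, which turns with ERCC scaling.

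RPL39 peaked in the WT 40S fraction. It measured 5036, 5381 and 3364 TPM in WT Input, 14917, 12752 and 13275 TPM in WT 40S, 7141, 5905 and 8578 TPM in WT 80S, and 1525, 1371 and 3128 TPM in WT Polysome2. The 40S libraries were higher than those of every other WT fraction, and the Polysome2 libraries were lower than all others. From Input to 40S the log2 level of RPL39 rose by 1.60 (SE 0.525, limma adjusted p = 0.0149), but with ERCC scaling the value was -0.25, and from 80S to Polysome2 it fell by 1.93 (SE 0.525, limma adjusted p = 0.01757), but with ERCC scaling the value was 0.31. Both calls were lost when any 1 WT replicate was left out, with values of 1.41 to 1.77 and -2.17 to -1.78.

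The other calls between WT Input and WT 40S were few against a large background. Of the 39 members 2 rose in 40S and 3 fell, while 0.691% of all tested transcripts rose and 42.5% fell (5.51% and 28.2% of those with a mean of at least 50 TPM), and the median difference was -0.58 for members and -0.95 for all tested. The split depended on the scaling, with 24 higher and 0 lower under median-of-ratios scaling (10.6% and 21.1% of all tested) and 0 higher and 9 lower under ERCC scaling (0.0294% and 28.8%). The 40S libraries lay wholly above Input for 8 members and below it for 14, against 2.83% and 57.2% of all tested transcripts. RPL9, a protein near the base of the P stalk, rose by 1.45 (SE 0.552, limma adjusted p = 0.03386), which turned to -0.36 with ERCC scaling. Its 40S libraries held 170, 156 and 561 TPM and its Input libraries 108, 108 and 60.5 TPM, so the WT 40S replicate 3 value was by far the highest. Without that library the RPL9 difference was 0.86 and was not called.

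Members that fell in WT 40S included a partner in the 5S ribonucleoprotein, the complex of 5S rRNA with RPL5 and RPL11 that also binds MDM2. RPL5 held 1840, 1870 and 1499 TPM in WT Input and 644, 737 and 46.1 TPM in WT 40S, without overlap. It fell by 2.62 (SE 0.962, limma adjusted p = 0.02856), and without WT 40S replicate 3 the difference was -1.33 and was not called. RPL11 held 1839, 1800 and 1455 TPM in Input and 609, 605 and 312 TPM in 40S, again without overlap, with a difference of -1.79 (SE 0.746, limma adjusted p = 0.0522), and -1.47 without that library. With median-of-ratios scaling, which moved the member median to 1.97, RPL5 stood at 0.02 and RPL11 at 0.84. RPL22, a protein near the tunnel exit, held 238, 248 and 262 TPM in Input and 82.1, 95.7 and 38.8 TPM in 40S, and fell by 1.87 (SE 0.557, limma adjusted p = 0.007712). RPL6, named after its value was seen, fell by 2.11 (SE 0.677, limma adjusted p = 0.01295). Under median-of-ratios scaling these directions turned as well, to 0.75 for RPL22 and 0.53 for RPL6. Without WT 40S replicate 3 neither was called, at -1.48 and -1.33.

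The P stalk recruits translation factors and is built of RPLP0 with RPLP1 and RPLP2 on a base that includes RPL12. RPLP1 held 1916, 1980 and 1411 TPM in WT Input, 5339, 6470 and 4054 TPM in 40S, 1883, 2997 and 2180 TPM in 80S and 715, 637 and 1571 TPM in Polysome2. Its 40S libraries were the highest WT values of this mRNA, and its Polysome2 libraries lay below its 80S libraries. The difference from Input to 40S was 1.57 (SE 0.759, limma adjusted p = 0.09594) and that from 80S to Polysome2 was -1.37 (SE 0.759, limma adjusted p = 0.2218), and with ERCC scaling these were -0.27 and 0.87. Neither passed the test. RPLP0 (ENST00000392514.8) held 5046, 6057 and 2762 TPM in WT 80S and 1358, 1306 and 1264 TPM in WT Polysome2, without overlap. Its difference was -1.74 (SE 1.85, limma adjusted p = 0.5569), or 0.49 with ERCC scaling. The SE of the main fit pools the spread of all 36 libraries. With only the groups compared the SE was 0.39 and RPLP0 was called (limma adjusted p = 0.02791). No other alternative called it, in a range up to 0.9084. RPLP2 was higher in WT 40S than in Input in all libraries, at 4322, 4599 and 1836 against 1723, 1774 and 1373 TPM, with a difference of 1.04 (SE 0.578, limma adjusted p = 0.1502), or -0.80 with ERCC scaling. RPL12 spanned 1372 to 10224 TPM in WT 40S, its lowest value being in replicate 3, and overlapped Input.

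Between WT 80S and WT Polysome2, 0 of 39 members rose and 2 fell (RPL39 and RPL41), beside 8.63% and 4.44% of all tested transcripts and 7.2% and 8.49% of those with a mean of at least 50 TPM. With ERCC scaling 5 rose and 0 fell (52.5% and 2.68% of all tested), and with median-of-ratios scaling 0 rose and 6 fell (3.49% and 7.15%). The member median was -0.44, or 1.79 with ERCC scaling, and the median of all tested transcripts 0.23, or 2.15. In replicates 1 and 2 most members were lower in Polysome2 (31 and 34 of 39), and in replicate 3 most were higher (28 of 39). Non-overlapping groups were found for 4 members above and 7 below, against 30.6% and 14% of all tested transcripts. The members above were RPL24, RPL15, RPL13 and RPL6. RPL24, a subunit bridge protein, held 2573, 2099 and 1782 TPM in 80S and 3838, 4401 and 3505 TPM in Polysome2, the highest WT fraction for this mRNA under all 3 replicate numbers. Its difference of 0.87 (SE 0.547, limma adjusted p = 0.2814) did not pass the test. It was 1.72 and called with quantile normalization (limma adjusted p = 0.001047) and 0.08 with median-of-ratios scaling (0.9503). These were the ends of the adjusted p range over its alternatives. The largest difference was 3.11 with ERCC scaling, also called (limma adjusted p = 0.01928), beside 2.15 for the median of all tested transcripts. RPL24 was called without KO replicate 1 too (0.87, limma adjusted p = 0.02356). RPL15, a core rRNA-binding protein, held 13.1, 16.3 and 10.7 TPM in 80S and 98.2, 102 and 68.5 TPM in Polysome2. The RPL15 difference of 2.66 (SE 1.56) missed the threshold (limma adjusted p = 0.2486), although the groups were far apart. It passed with only the groups compared (adjusted p = 0.0047) and with blocks for the replicate number within genotype, in a range from 0.003968 to 0.5154 over its alternatives. RPL13, the lowest member, held 2.65, 2.81 and 1.33 TPM in 80S and 5.83, 6.32 and 5.69 TPM in Polysome2, a difference of 1.12 (SE 0.508, limma adjusted p = 0.133).

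**Figure D4:**
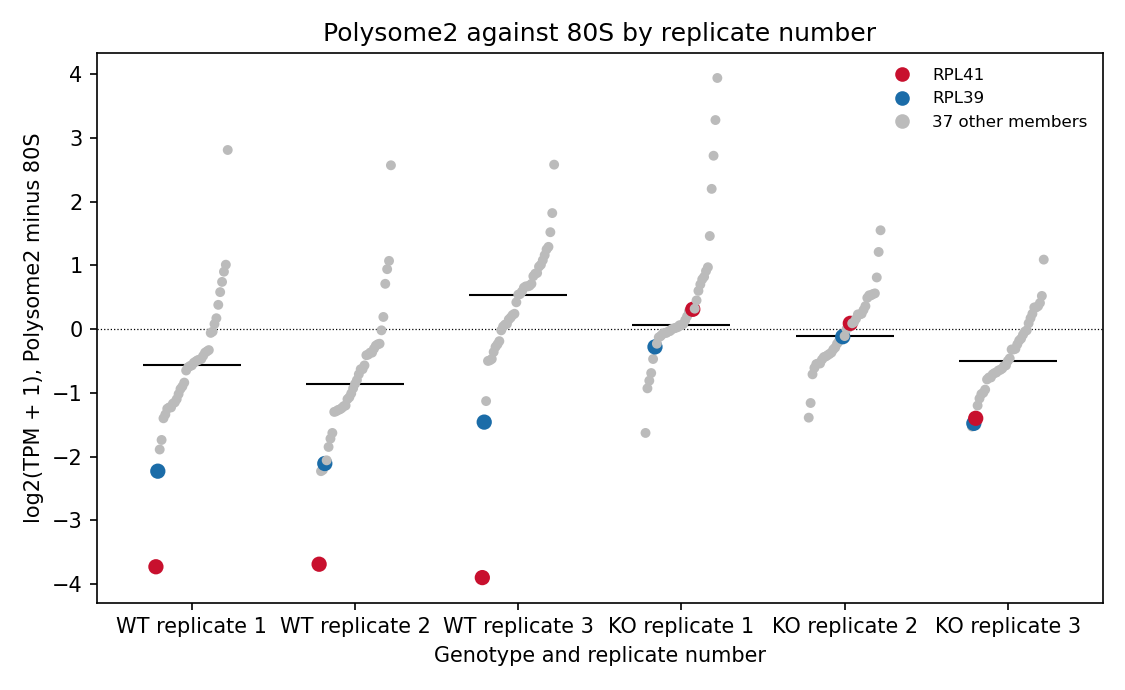
Difference between Polysome2 and 80S in log2(TPM + 1) (vertical axis) for each of the 39 members between libraries of the same genotype and replicate number, with members ordered by value and a bar at the median. RPL41 is the lowest member for all 3 WT replicate numbers, at -3.73, -3.69 and -3.90, and lies at 0.31, 0.09 and -1.40 in KO.

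Among the 5 gradient fractions, the one with the highest level was the same under all 3 WT replicate numbers for 13 members. It was 40S for RPL9, RPL39 and RPLP1, 80S for RPL4, RPL21 and RPL41, Polysome1 for RPL22, RPL35 and RPL36, and Polysome2 for RPL6, RPL13, RPL15 and RPL24. In KO it was the same for RPL35 (80S) and RPL37A (40S), and differed between replicate numbers for the other 37 members. These peaks compare TPM between libraries of different composition and are a description.

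RPL10A had a narrow range in WT, as did RPL19 outside 40S replicate 3, and RPL3 and RPL14 had wide ones. RPL10A, the L1 stalk protein that helps deacylated tRNA leave, ranged from 1304 to 3225 TPM over the 18 WT libraries. RPL19, a subunit bridge protein, lay between 1710 and 4089 TPM in 17 of them and at 71.8 TPM in 40S replicate 3. RPL3 (ENST00000216146.8), which shapes the peptidyl transferase centre, held 1330, 1070 and 833 TPM in Input and 246, 240 and 0.297 TPM in 40S, without overlap, and replicate 3 alone was near 0. The RPL3 difference was -4.64 (SE 2.12, limma adjusted p = 0.07842), or -2.12 without that library. RPL14 held 298, 228 and 179 TPM in Input and 88.2, 74.3 and 0 TPM in 40S, with a difference of -3.61 (limma adjusted p = 0.08526), or -1.49 without WT 40S replicate 3. RPL4 (ENST00000307961.10), a protein of the tunnel constriction whose listed transcript was scarce, held 22.2, 21.4 and 17.9 TPM in 80S, its highest WT fraction under all 3 replicate numbers. RPL38, which has been linked to translation of selected mRNAs, ranged from 4.63 to 69.8 TPM in WT, and replicates of a fraction differed by as much as fractions did. From WT 40S to WT 80S 0 of 39 members passed the limma test in either direction, beside 3.25% and 0.0588% of all tested transcripts, and 4 had an unadjusted p under 0.05. Groups lay apart for 8 members above and 2 below (42.4% and 0.49% of all tested). With median-of-ratios scaling 10 fell and 0 rose (0.836% and 1.20% of all tested), and with ERCC scaling 33 rose and 0 fell (50.5% and 0.00784%). The highest differences there were 4.05 for RPL3, 2.70 for RPL14 and 2.65 for RPL8. They rested on WT 40S replicate 3, without which they were 1.53, 0.58 and -0.86. The lowest were -0.55 for RPLP2, -0.93 for RPL39 and -1.17 for RPLP1, which turned to 2.97, 2.59 and 2.35 with ERCC scaling. In Polysome2 against Input 0 rose and 1 fell (RPL41), beside 3.28% and 8.81% of all tested transcripts. The groups lay apart for 4 members above and 9 below (15.4% and 24.5%). With ERCC scaling 32 rose and 0 fell (63.1% and 1.23% of all tested).

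Most members had lower values in KO than in WT, and few of these differences passed the test. Against WT the member median was -1.01 in Input, beside -0.51 for all tested transcripts. It was -1.20 for 40S (all tested 0), -1.12 for 80S (-0.17), -1.36 for disome (-0.45), and -0.92 for Polysome1 (-0.32) and for Polysome2 (-0.22). Among tested transcripts with a mean of at least 50 TPM the median was -0.29 for Input, 0.33 for 40S, -0.31 for 80S, -1.18 for disome, -0.56 for Polysome1 and -0.41 for Polysome2, so in disome it lay near that of the members. In a bulk library, fewer cells holding an mRNA and less of it per cell cannot be told apart. In Input 0 rose and 1 fell, beside 1.97% and 18% of all tested transcripts. In Polysome2 1 rose and 1 fell, beside 1.9% and 3.62%. Among the 2013 tested transcripts with a mean of at least 50 TPM, a class that holds most members, the shares higher and lower in KO were 7.7% and 0.944% for Input and 4.67% and 0.149% for Polysome2. For 40S none of the 39 passed the limma test (12 with an unadjusted p under 0.05), beside 0.0137% higher and 0.00979% lower. For 80S none passed (9 with an unadjusted p under 0.05), beside 0.0627% and 0.537%. For disome none passed (15), beside 0.0411% and 2.74%, and for Polysome1 none passed (6), beside 1.58% and 3.84%. KO libraries lay wholly above or below WT for 3 and 10 members in Input (all tested 6.13% and 29%), 0 and 6 in 40S (8.99% and 2.7%), 0 and 10 in 80S (7.09% and 12.8%), 0 and 3 in disome (1.14% and 13%), and 2 and 12 in Polysome1 (9.17% and 19.6%). With ERCC scaling all 39 members were lower in each of these comparisons, with 19 called for Input, 36 for 80S, 37 for disome and 39 for each polysome fraction. Of all tested transcripts 13.5%, 23.9%, 53.3%, 76.2% (Polysome1) and 76.1% (Polysome2) were called lower there too.

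The member that rose in KO was RPL41 in Polysome2. The KO libraries held 7095, 9474 and 5136 TPM against 1712, 1685 and 2198 TPM in WT, and the groups did not overlap. The difference was 1.92 (SE 0.575, limma adjusted p = 0.04617), and with ERCC scaling it turned to -3.43, beside -3.40 for the median of all transcripts. It lost the call without any 1 WT replicate or without KO replicate 2, at 1.70 to 2.05, and without WT 40S replicate 3, and with KO replicate 3 alone it was 1.47, not called. Over its alternatives the adjusted p ran from 0.005822, where the sign was turned, to 0.4436. In 80S the KO libraries held 5731, 8880 and 13551 TPM, all below WT, with a difference of -1.52 (SE 0.575, limma adjusted p = 0.1853). In Input, at 6361, 10145 and 8518 TPM, RPL41 overlapped WT.

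The change of RPL41 from 80S to Polysome2 was therefore compared between genotypes directly. It was -3.77 in WT and -0.33 in KO (SE 0.575, limma adjusted p = 1), and the difference of these was 3.44 (SE 0.813, limma adjusted p = 0.1063). KO libraries of one replicate number deviated together from their group means, WT libraries did not always, and with the number within each genotype as a fixed block the adjusted p was 0.01567. The adjusted p ran from 0.007774 to 0.6495 over its alternatives, the highest with ERCC scaling, where the difference was 1.01. With KO replicate 3 alone, taken to vary like the other groups, it was 2.37 and not called. In the main fit 0 of 39 members passed for this interaction, beside 0.0313% higher and 0.0588% lower among all tested transcripts, and 1 member had an unadjusted p under 0.05. For 80S against 40S 0 of 39 passed and 0 had an unadjusted p under 0.05, beside 0.00196% higher and 0% lower. Within KO 0 of 39 members passed from 40S to 80S (1 with an unadjusted p under 0.05, beside 0.858% higher and 0.00784% lower; groups apart for 3 above and 1 below, beside 14.5% and 0.529%) and 0 from 80S to Polysome2 (1, beside 1.4% and 0.049%; groups apart for 0 above and 3 below, beside 8.21% and 1.51%).

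RPL39 followed RPL41 in Polysome2 without passing the test. Its KO libraries held 6233, 6105 and 3154 TPM against 1525, 1371 and 3128 TPM in WT, without overlap, although the lowest KO and the highest WT values were close. The difference was 1.40 (SE 0.525, limma adjusted p = 0.09786), or -3.95 with ERCC scaling. In Input RPL39 held 8884, 11757 and 7289 TPM in KO, above WT in all libraries, with a difference of 1.02 (SE 0.525, limma adjusted p = 0.1668) that turned to -2.05 with ERCC scaling. RPL4 was higher in KO Polysome2 in all libraries, at 44.0, 28.8 and 20.3 against 8.87, 8.31 and 13.8 TPM (1.46, SE 0.501, limma adjusted p = 0.07422), although with ERCC scaling all 39 members were lower in KO Polysome2. In Polysome1 RPL4 held 41.6, 32.4 and 19.1 TPM in KO against 9.12 to 12.2 TPM in WT (1.39, limma adjusted p = 0.08215). RPL7 and RPL34 had mean differences above 0 in some fractions without passing the test. RPL34 in KO Polysome1, at 2498, 3275 and 1694 TPM, overlapped WT at 1445 to 1808 TPM (0.62), and RPL7 in KO 80S, at 1305, 1147 and 664 TPM, overlapped WT at 517 to 1013 TPM (0.49). Non-overlapping groups in Polysome2 were found for 3 members above WT and 15 below, against 9.86% and 13.8% of all tested transcripts.

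Members that fell in KO were scarce transcripts, named after their values were seen. RPL28 held 2.35, 2.97 and 5.50 TPM in KO Input and 10.8, 10.1 and 12.5 TPM in WT, without overlap, and fell by 1.45 (SE 0.517, limma adjusted p = 0.04604). RPL13 held 0.478, 0.147 and 2.83 TPM in KO Polysome2 and 5.83, 6.32 and 5.69 TPM in WT, without overlap, and fell by 1.90 (SE 0.508, limma adjusted p = 0.02843). For both the KO replicate 3 value was the nearest to WT. When any 1 of the WT replicates was left out, or without KO replicate 1 or 2, neither was called, at -1.51 to -1.25 for RPL28 and -1.92 to -1.55 for RPL13. RPL28 was at -0.81 with quantile and -0.89 with median-of-ratios scaling and was not called, and under median-of-ratios scaling the member called in Input was RPL39, which was higher in KO (1.65).

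RPL3, RPLP0 and RPL8 had the lowest differences between KO and WT in Input, and KO replicate 3 did not share the low level of the other KO replicates. RPL3 held 0.317, 33.9 and 701 TPM in KO Input against 833 to 1330 TPM in WT, with a difference of -5.06 (SE 2.12, limma adjusted p = 0.08962). RPL8 (ENST00000262584.7), a protein of the peptidyl transferase centre, held 0.218, 29.3 and 1760 TPM in KO 80S against 811 to 2650 TPM in WT, and KO replicate 3 lay inside the WT range. RPLP0 held 11.9, 171 and 2417 TPM in KO Input against 2007 to 3128 TPM in WT, again with KO replicate 3 inside the range. RPL14 was listed at 0 TPM in KO 80S replicates 1 and 2 and held 71.6 TPM in replicate 3, against 87.8 to 148 TPM in WT. Among the log2 differences in 40S were -4.14 for RPLP0 and -3.20 for RPL3, and in 80S they were lowest for RPL8 (-5.08), RPL3 (-5.04) and RPL14 (-4.88). In disome they were lowest for RPL14 (-3.53), RPL3 (-3.50) and RPL8 (-3.32), and in the polysome fractions RPL8 was lowest, at -4.17 in Polysome1 and -5.15 in Polysome2, with RPL3 and RPL15 next. With KO replicate 3 alone the differences were -0.59 for RPL3 and -0.12 for RPLP0 in Input and 0.38 for RPL8 in 80S. Without KO replicate 3 the members called lower numbered 15 for Input (all tested 38.0%), 6 for 40S (0.744%), 18 for 80S (16.8%), 27 for disome (28.2%), 13 for Polysome1 (27.3%) and 13 for Polysome2 (25.3%). Those called higher were 1 for Polysome1 (9.12%) and 3 for Polysome2 (9.0%). Removing both of the other KO replicates left a lone KO library per fraction, so calls of that fit are not set against these.

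Read library by library, the KO replicates differed among themselves. KO replicate 1 lay below all WT libraries of its fraction for 29 to 39 members and KO replicate 2 for 15 to 31. Over all tested transcripts these shares were 14.5% to 60.9% and 8.96% to 54.7%, both lowest in 40S. KO replicate 3 lay within the WT range for 17 to 24 members, with a median difference from the WT mean between -0.34 and 0.07. It lay below all WT libraries for 5 to 17 members, beside 7.06% to 34.5% of all tested transcripts. It lay above them for 3 to 11 members, beside at most 36.1%. The remaining tested transcripts lay within the WT range too, so this position was not particular to the members. Not all members were low in KO replicates 1 and 2. RPL4 lay above all WT libraries in 5 of the 6 samples of KO replicate 1, and RPL34 in 3 (Input, 80S and Polysome1). RPL9 did so in the same samples as RPL34 and in Polysome2. RPL6, RPL7, RPL24, RPL27, RPL32, RPL39 and RPL41 did so in at least 1 library of KO replicate 1 or 2.

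WT 40S replicate 3 had a like pattern. Of the 32 members with at least 20 TPM on average in WT 40S replicates 1 and 2, 8 stood below 10% of that mean in replicate 3, namely RPL3, RPL5, RPL7A, RPL8, RPL14, RPL19, RPL21 and RPLP0. RPL8 held 2566 and 2368 TPM in replicates 1 and 2 and 0.671 TPM in replicate 3, and RPLP0 held 7263, 4765 and 419 TPM. Against KO 80S replicate 3, KO 80S replicate 1 fell below 10% for 9 members, of which 6 were on this list (66.7% of the KO list and 75.0% of the WT 40S list). Across the 39 members, the deviation of WT 40S replicate 3 had a Pearson r of 0.78 to 0.91 with the deviations of the KO replicate 1 libraries outside 40S, 0.64 to 0.81 with those of KO replicate 2 and -0.41 to 0.24 with those of KO replicate 3. These coefficients are descriptions, since members share each library's composition. WT 40S replicate 3 had 8956 transcripts that reached 1 TPM, against 14712 and 15949 in replicates 1 and 2. KO 80S replicates 1 and 2 had 18407 and 18851, against 27832 in KO 80S replicate 3. The same lists were not made over all transcripts. What these libraries have in common was not tested, and a part of it in the KO against WT differences was not tested either.

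**Figure D5:**
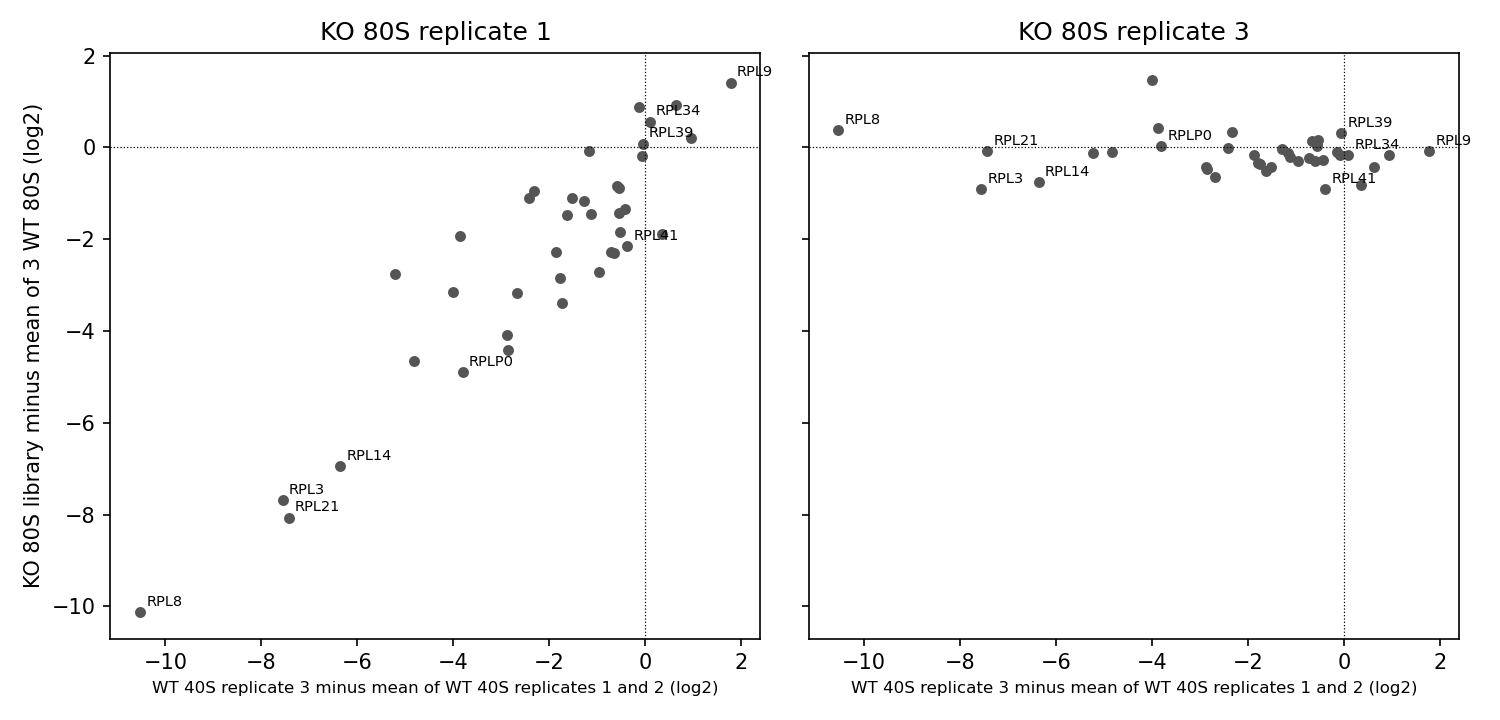
Deviation of each of the 39 members in WT 40S replicate 3 from the mean of WT 40S replicates 1 and 2 (horizontal axis, log2) against the deviation of KO 80S replicate 1 (left) or KO 80S replicate 3 (right) from the mean of the 3 WT 80S libraries (vertical axis, log2). The points of KO replicate 1 run along a line with an r of 0.91, and those of KO replicate 3 stay near 0 on the vertical axis with an r of -0.10.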

How the data were processed

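Poly(A) RNA of 36 libraries was prepared with a stranded mRNA kit from equal amounts of RNA and read as paired-end 75 nt, per the labels' protocols. The authors deposited a table of estimated abundances in TPM per transcript, with ERCC spike-in rows. Per the submitters' processing notes the tools were kallisto and sleuth and the build was hg19; versions are not given in the sources used here. TPM keeps no depth, so counting intervals could not be set. Sequences were read from RefSeq promoter windows of GRCh38.p14, and no coordinate of the files' build was used.

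From these values log2(TPM + 1) was fitted for the 51052 transcripts that reached 1 TPM in 3 or more libraries (92 ERCC rows set aside) with limma 3.58.1 in R 4.3.3, as 12 group means over all 36 libraries with a trended prior, and 24 residual degrees of freedom. Each of the 14 comparisons was adjusted over all tested transcripts by Benjamini-Hochberg, and an adjusted p under 0.05 was a call. A comparison of genotypes shares its libraries with the comparisons of fractions. The fit was tested on simulated data for KO against WT Input, with 200 of 51052 transcripts changed. Of these, 14% of changes of log2 2 and 88% of changes of log2 4 were called. The 200 were drawn from transcripts with a mean log2 level above that of 50 TPM and a residual SD under 1. The simulated noise was independent between libraries. These rates therefore need not hold for scarcer or more variable members, or where libraries of one replicate deviate together. Descriptions and figures used Python 3.11.15, numpy 2.4.6, pandas 2.3.3 and matplotlib 3.10.9.

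Members and lists were chosen with earlier results of these data known. Named genes were fixed by role, with the 3 highest and 3 lowest members of each comparison, and exceptions are marked. The values of 1 member are not reported here by name, and it stays in the counts, sums and medians. Samples shared only a replicate number between genotypes (1 of 18 same-number pairs of deviations had r over 0.1), so the genotype comparison was not paired. Within KO all 45 pairs of gradient samples with one number had r over 0.1 (0.294 to 0.833), and within WT 23 of 45 had (-0.146 to 0.502). Alternatives were another pseudocount, other filters, quantile, median-of-ratios and ERCC scaling, only the groups compared, replicate blocks, and leaving out libraries. The block by number within genotype, and the fits without WT 40S replicate 3 or KO disome replicate 1, were chosen after seeing the data.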

Additional observations from a re-analysis of the deposited data

Results flagged for a closer look

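The listed RPL4 transcript moved in opposite directions between 80S and Polysome2 in the genotypes. Polysome2 minus 80S averaged -0.95 on the log2 scale in WT, with all 3 replicate numbers negative (-1.23, -1.27 and -0.36), and 0.36 in KO, with all 3 positive (0.14, 0.53 and 0.41). The difference of these was 1.31 (SE 0.709, limma adjusted p = 0.6056), so it was tested and not called, and with ERCC scaling it was -1.0.

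For RPL41 the same difference between genotypes, 3.44 on the log2 scale, passed the limma test when the replicate number within each genotype entered as a fixed block (SE 0.697, adjusted p = 0.01567). In the fit as reported it did not pass (adjusted p = 0.1063), and it passed under some other settings as well, among them quantile (0.04763) and median-of-ratios scaling (0.03747). With ERCC scaling it was 1.01 (SE 1.55, limma adjusted p = 0.6495). It was not called with a pseudocount of 0.1 or either other filter. Nor was it called without any 1 WT replicate, or without KO replicate 1 or 2. With KO replicates 1 and 2 left out it was 2.37 (SE 0.857, limma adjusted p = 0.6074), with the lone KO library of each fraction assumed to vary like the other groups.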

How the results depend on the processing

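Scaling and the KO replicates moved the member results most. With culture as a random block, 0 members were higher and 5 lower in KO against WT Input, beside 2.32% and 20.7% of all tested. In Polysome2 that block gave 1 higher and 3 lower, beside 3.38% and 8.25%. The number of members called in KO against WT Input was 0 with a pseudocount of 0.1 or a filter of 10 TPM. It was also 0 with quantile normalization or only the groups compared, 19 with ERCC scaling and 5 with culture as a random block. In 40S it was 1, lower, with quantile normalization (1.32% of all tested lower) and 15, all lower, with median-of-ratios scaling (3.49%). It was 36 in 80S and 37 in disome with ERCC scaling, all lower (23.9% and 53.3% of all tested lower). With the replicate number as a block it was 1 in disome, lower (6.01%). In Polysome1 it was 2 with quantile normalization, 39 with ERCC scaling, 3 with the number block and 1 with the random block, all lower. The shares of all tested transcripts called lower there were 1.06%, 76.2%, 7.83% and 8.29%. In Polysome2 it was 0 with the pseudocount, either other filter or only the groups compared. There it was 39 with ERCC scaling and 4 with the random block.

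Within genotypes, WT 40S against Input gave 24 with median-of-ratios scaling and 9 with ERCC scaling. It gave 15 with the random block and 17 with the fixed replicate block by culture. The number block called 3 higher and 6 lower, beside 0.832% and 44.9% of all tested. WT 80S against 40S gave 10 lower with median-of-ratios and 33 higher with ERCC scaling in place of 0. The random block gave 5 higher, beside 19.4% higher and 0.2% lower of all tested, and the fixed block 7. WT Polysome2 against 80S gave 6 with median-of-ratios scaling and 5 with ERCC scaling or the fixed block. Quantile normalization called 1 higher and 5 lower there, beside 5.84% and 6.53% of all tested. Only the groups compared gave 2 higher and 4 lower, beside 19.0% and 8.02%. The random block gave 2 higher and 2 lower, beside 21.1% and 9.28%. WT Polysome2 against Input gave 32 with ERCC scaling. Quantile normalization called 1 higher and 3 lower there, beside 3.36% and 5.42% of all tested. Only the groups compared also gave 1 higher and 3 lower, beside 7.77% and 10.7%. The fixed block gave 1 higher and 1 lower, beside 7.43% and 14.4%. KO 80S against 40S gave 5 higher with ERCC scaling (1.56% of all tested higher) and 1 higher (RPL11) with the fixed block (4.89%). The interaction of genotype with Polysome2 against 80S gave 1, in place of 0, under quantile, median-of-ratios, only the groups compared and all 3 replicate blocks. The shares of all tested transcripts called higher there were 0.0294% to 1.02%. WT libraries of one number did not always deviate together, so the counts with the fixed block in WT are given here only. In WT 40S against Input the fixed block called 5 higher and 12 lower, beside 1.48% and 53.3% of all tested. The random block called 4 and 11 there, beside 1.37% and 52.5%. In WT 80S against 40S the fixed block called 7 higher and 0 lower, beside 23.9% and 0.239%. In WT Polysome2 against 80S it called 2 higher and 3 lower, beside 22.5% and 9.59%.

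Leaving out 1 replicate at a time gave 0 to 15 calls in Input, 0 to 6 in 40S, 0 to 18 in 80S, 0 to 27 in disome, 0 to 14 in Polysome1 and 0 to 16 in Polysome2 for KO against WT, 0 to 12 for WT 40S against Input, 0 to 4 for WT 80S against 40S, 1 to 4 for WT Polysome2 against 80S, 0 to 2 for WT Polysome2 against Input and 0 to 1 for the interaction at Polysome2. The highest counts for KO against WT came without KO replicate 3, with shares of all tested given above. For WT 40S against Input, the 12 without KO replicate 3 were 2 higher and 10 lower, beside 1.15% and 50.3%. Without the 10 most abundant other transcripts the member share was 12.8% in WT 40S, 10.9% in WT 80S, 6.92% in KO Input and 6.61% in KO 40S.

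Directions turned as follows. With ERCC scaling RPL41 was at 1.80 in WT Polysome2 against Input and -3.43 in KO against WT Polysome2, and RPL39 was at -0.25 in WT 40S against Input, 2.59 in WT 80S against 40S, 0.31 in WT Polysome2 against 80S, -3.95 in KO against WT Polysome2 and -2.05 in KO against WT Input. Likewise RPL9 (-0.36), RPLP1 (-0.27) and RPLP2 (-0.80) turned in WT 40S against Input, RPLP1 (2.35) and RPLP2 (2.97) in WT 80S against 40S, RPLP1 (0.87) and RPLP0 (0.49) in WT Polysome2 against 80S, and the RPL4 interaction (-1.0). With median-of-ratios scaling RPL22 (0.75), RPL6 (0.53), RPL5 (0.02) and RPL11 (0.84) turned in WT 40S against Input and RPL11 (-0.09) in WT 80S against 40S. RPL8 in WT 80S against 40S was -0.86 without WT 40S replicate 3, and -0.49 to 4.54 with 1 replicate left out at a time. RPL8 in KO against WT 80S was 0.38 without KO replicates 1 and 2, and RPL41 in KO Polysome2 against 80S was 0.20 without KO replicate 3 and -0.65 without KO replicate 1. The cause was not tested. Member medians turned with median-of-ratios scaling in WT 40S against Input (-0.58 to 1.97) and WT 80S against 40S (0.44 to -1.43), and with ERCC scaling in WT Polysome2 against 80S (-0.44 to 1.79), WT Polysome2 against Input (-0.25 to 3.57) and the interaction at Polysome2 (0.18 to -2.16). Other medians changed sign by less than the replicate spread under some settings, and that of KO against WT disome went from -1.36 to 0.07 with KO replicates 1 and 2 left out. Of the other values for named members and member medians 786 kept their direction and side of the threshold or moved by less than the replicate spread, 89 were newly called, 59 lost the call and 13 moved. TPM without counts leaves the depth of the low members unknown.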
